A study of Mus musculus with 2 samples.

Results

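Macrophages of the wild-type mouse prostate were picked out as cell barcodes that carried RNA of the complement genes C1qa, C1qb and C1qc. They numbered 79 of the 5704 barcodes kept from 6565. Of these, 26 of 1995 kept barcodes (1.30%, 95% binomial interval 0.853 to 1.90) came from a library of the ventral lobes. The other 53 of 3709 (1.43%, 1.07 to 1.86) came from a library of the proximal and periurethral region. A barcode stands for 1 droplet and is taken as 1 cell. It was kept with at least 500 genes and with at most 10% of its unique molecular identifiers (UMIs, each counting 1 captured RNA molecule) from mitochondrial genes. A kept barcode was chosen when its C1qa, C1qb and C1qc UMIs together came to at least 5 and to at least 0.05% of its UMIs. Barcodes with over 5% of UMIs from Sbp and Spink1, secretory genes of the ventral lobe, were left out.

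The study profiled wild-type male C57BL6 mice, with no treatment given in the labels, by droplet RNA sequencing of whole cell suspensions, digested with papain and then TrypLE, with no sort for a marker given. Each region is 1 library, the ventral one made with the v2 and the proximal one with the v3 version of the 10x Genomics 3′ kit. The animals' ages and how many were pooled are not given in the sources used here. Region, kit and animals cannot be told apart, so the libraries stand side by side with no test between them. Intervals are 95% and cover counting error only, and they say nothing of the spread between animals.

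Macrophages are tissue phagocytes that take up dead cells and debris, sense microbes, present antigen on MHC class II molecules and release chemokines and cytokines. Most depend on the receptor Csf1r, which binds the ligands Csf1 and Il34. C1q is the recognition part of the classical complement pathway. Much of it is made by macrophages, and in mice it is a common marker of tissue-resident macrophages, which in the prostate lie in the stroma and along the epithelium.

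The C1q genes sit side by side on the minus strand of chromosome 4 (GRCm38, GENCODE): C1qb at 136880129 to 136886187, C1qc at 136889804 to 136893065 and C1qa at 136895917 to 136898803. Trem2, a lipid-sensing receptor of macrophages described below, lies on the plus strand of chromosome 17 at 48346401 to 48354147. The 150 bases before the start sites of C1qb and Trem2 are shown because they hold the letters GAGGAA or the reverse complement TTCCTC, a core of the sites bound by PU.1, the product of Spi1. Both are from RefSeq (GRCm38.p6), on the gene's strand from 5′ to 3′, and the motif is in capitals.
C1qb, chr4:136886201-136886350, minus strand: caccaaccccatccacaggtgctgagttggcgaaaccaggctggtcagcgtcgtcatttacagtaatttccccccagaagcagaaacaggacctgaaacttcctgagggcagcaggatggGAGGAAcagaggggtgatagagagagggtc
Trem2, chr17:48346251-48346400, plus strand: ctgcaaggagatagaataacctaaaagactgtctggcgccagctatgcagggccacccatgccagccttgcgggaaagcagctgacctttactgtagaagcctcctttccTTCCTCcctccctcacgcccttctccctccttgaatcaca
In C1qb the motif lay 30 bases before the start, and in Trem2 40 bases before it. The 250 bases before the start held it, on either strand, in 6986 of 27025 genes (25.9%). Among genes with enough UMIs in both libraries (the rule is given below) it was found in 150 of 505 (29.7%), among those at least 4-fold higher in the macrophages of both in 50 of 123 (40.7%), and among those at least 4-fold lower in both in 8 of 27 (29.6%). The higher and lower sets were called from these same data, and the shares were not tested. C1qb and Trem2 were shown for holding the motif, and not every macrophage gene does. Ms4a7, described below, had 0 matches in the 250 bases before either start site. C1qc had 0 in its 150 bases and 1 further upstream. A match describes letters and is no evidence of binding.

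Since C1q chose the barcodes, its values describe the choice. Each ventral macrophage held 8 to 145 C1q UMIs (median 55.5), and each proximal one 5 to 392 (median 65). As a share of a barcode's UMIs this was 0.621% to 2.74% (median 1.48%) in the ventral and 0.0580% to 2.33% (median 0.655%) in the proximal library, where 14 of the 53 were below 0.3%. Summed over the ventral macrophages, C1qa reached 6337 CPM (the UMIs of the gene per 1000000 UMIs, 5833 to 6873) against 1.13 CPM over the other barcodes of the library. In the proximal library it reached 2682 CPM (2556 to 2813) against 0.150 CPM. Most other barcodes lay far below the limits, and 1918 of the 1969 other ventral barcodes and 3595 of the 3656 other proximal ones had no C1q UMI. The nearest left out were a ventral barcode with 62 C1q UMIs and 47.2% of its UMIs from Sbp and Spink1, a ventral one with 18 (0.0465%), a ventral one with 4, and a proximal one with 6 (0.0452%). In the proximal library the chosen barcodes ran down to the limit, at 5 UMIs and 0.0580%, as the plot of C1q against depth shows.

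**Figure D1:**
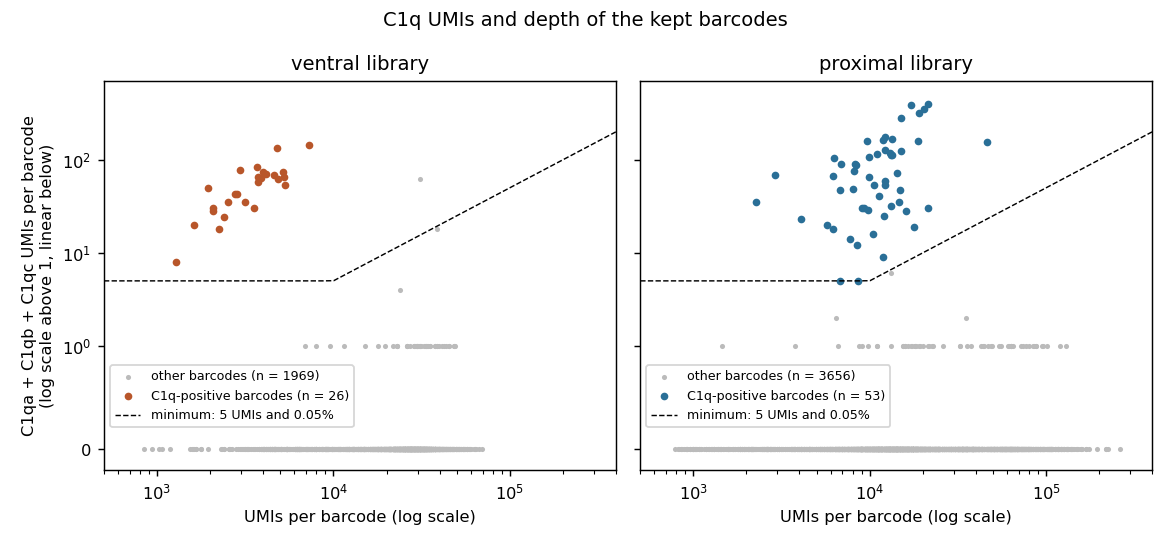
C1qa, C1qb and C1qc UMIs (vertical axis, log scale above 1) against all UMIs (horizontal axis, log scale) of every kept barcode, ventral library left and proximal library right. Coloured points are the 26 and 53 chosen barcodes, grey points the others, and the dashed line the minimum of 5 UMIs and 0.05%; most grey points lie at 0.

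The ventral macrophages were much shallower than their neighbours, with a median of 3622 UMIs (1289 to 7259) against 25950 in the other barcodes and a median of 1254.5 genes. The proximal ones had a median of 11361 UMIs (2260 to 46485) against 15397, and a median of 2774 genes. Together they held 91993 and 635269 UMIs. RNA of Sbp and Spink1 made up 1.44% of the ventral and 0.174% of the proximal macrophages' UMIs, against 44.3% and 6.05% in the other barcodes. In every ventral macrophage it was between 1.01% and 3.58%, so RNA of these luminal genes was present in each. One proximal barcode stood apart with 46485 UMIs, 6973 genes, 154 C1q UMIs and 228 UMIs of the epithelial markers. It held 101 of the 138 Krt8 UMIs and 949 of the 1065 Defb50 UMIs of the 53 proximal macrophages. Values of single genes that it moves by over 1.5 times are mostly also given without it. No barcode sequence occurred in both libraries.

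The other markers of the cell type, which the choice did not use, went with C1q. Csf1r, on chromosome 18 at 61100598 to 61132149, was found in 21 of the 26 ventral macrophages with 0, 2 and 10 UMIs as lowest, median and highest. Its summed level was 641 CPM (488 to 827) against 0.0821 CPM in the other barcodes. Of the proximal ones 49 of 53 had it, with 0, 4 and 24 UMIs, at 375 CPM (329 to 425) against 1.97 CPM. The epithelial barcodes, which should lack it, had a Csf1r UMI in 0 of 231 (up to 1.30% allowed) and 125 of 2842 (4.40%) at median depths of 6366 and 17184.5 UMIs. Thinned to 1000 UMIs each, 65.4% of ventral and 30.2% of proximal macrophages kept a Csf1r UMI, against 0 and 0.247% of the epithelial barcodes. These shares rest on 1 random draw per barcode, and with few UMIs per barcode another draw would give other shares. Adgre1, which encodes the surface antigen F4/80, was at 359 CPM (247 to 504) in 15 of 26 ventral and at 253 CPM (216 to 296) in 43 of 53 proximal macrophages. In the other barcodes it was at 0.0616 and 0.225 CPM, and it was found in 0 of 231 and 11 of 2842 (0.387%) epithelial barcodes.

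Most markers of other lineages were at or near 0. Partial exceptions were dendritic cell genes and, in 1 ventral barcode, erythroid genes. Of 11 T and NK cell genes 10 had no UMI in the ventral and 11 in the proximal macrophages, and all 7 mast cell genes were at 0 in both. Of 8 neutrophil genes 7 were at 0 in each library. The 5 erythroid genes had 15 UMIs in the ventral macrophages, all in 1 barcode, and 3 UMIs in the proximal ones. As a share of ventral UMIs this was 0.0163% against 0.000768% of the others. The 7 B or plasma cell genes had 4 and 3 UMIs, with 5 and 6 of them at 0. All 6 fibroblast, 5 endothelial and 5 smooth muscle genes were at 0 in the ventral macrophages, and these lists summed to 12, 23 and 13 UMIs in the proximal ones. The 10 dendritic cell genes had 10 UMIs in 9 ventral and 51 UMIs in 26 proximal macrophages, with 8 and 3 of them at 0. Siglech, a lectin best known from plasmacytoid dendritic cells, was the one called higher. It had 22 UMIs in 10 proximal macrophages (34.6 CPM, 1618-fold, 398 to 14191) and no UMI in the other immune barcodes, and 3 UMIs in the ventral macrophages. Flt3 had no UMI in the macrophages of either library and Ccr7 had 1, in the proximal one. In the 13 and 42 other immune barcodes Flt3 was at 0 and 51.3 CPM and Ccr7 at 30.9 and 401 CPM. Xcr1, of the cross-presenting dendritic cells, had 9 UMIs in 3 proximal macrophages and none in the ventral ones. Batf3, of the same list, had 12 proximal UMIs outside the barcode with epithelial markers (10.9-fold, 5.55 to 19.6), and Clec9a had 3. Both had too few UMIs to be measured. The heat map of levels by group sets these side by side.

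**Figure D2:**
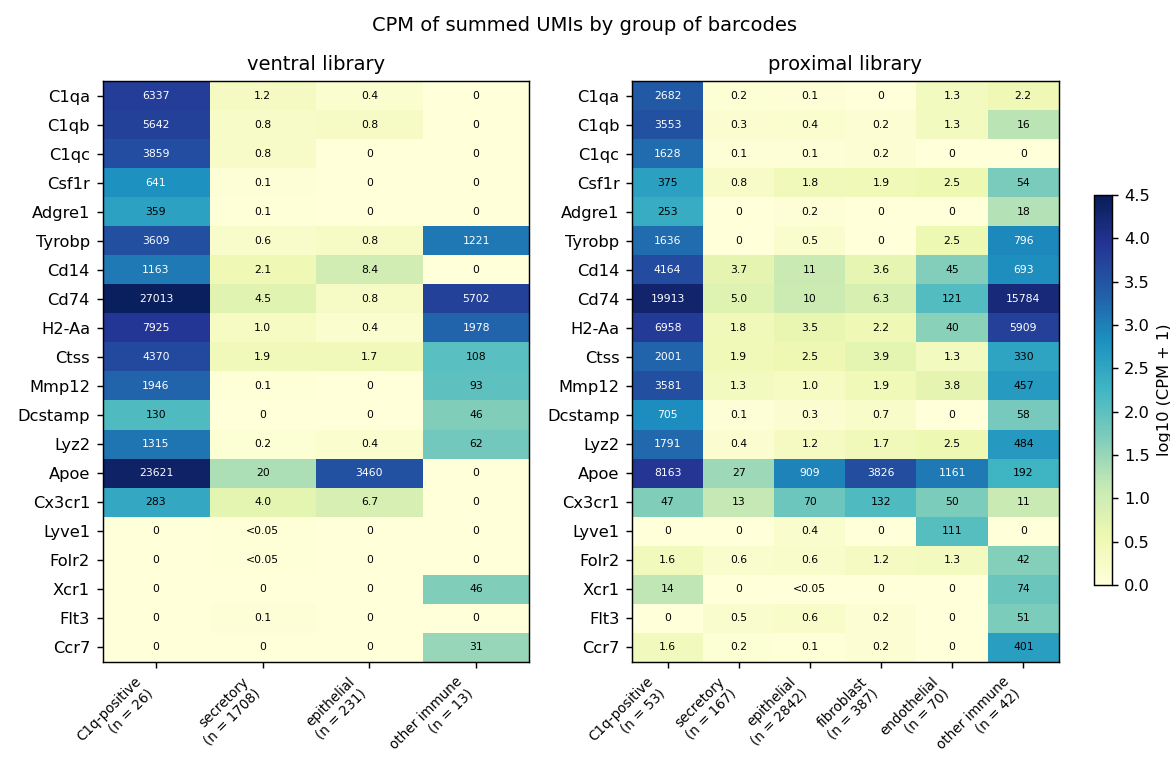
Summed CPM (printed in each cell, colour on a log10 scale) of marker genes, by rows, in the C1q-positive barcodes and in the other barcodes grouped by their markers, by columns, for the ventral library left and the proximal library right. Csf1r and Adgre1 are highest in the C1q-positive barcodes (641 and 375 CPM, 359 and 253 CPM), and Cd74 is high in them and in the other immune barcodes.

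Genes were compared between the macrophages and all other kept barcodes of the same library as ratios of summed CPM. A gene counted as measured when the macrophages held at least 20 of its UMIs or would have held 20 at the level of the others, and it was called when the ratio was at least 4-fold either way. With 1 library per region this is a rule of size and not a test. In the ventral library 254 of 659 measured genes were higher (38.5%) and 54 lower (8.19%), with a median log2 ratio of 1.08. In the proximal library 810 of 5323 were higher (15.2%) and 764 lower (14.4%), with a median of 0.03. A gene near 0 in the other barcodes passed only through the macrophages and then had to be higher. The counts and medians of the macrophage gene lists below therefore describe the genes that passed and support nothing further. Without Sbp and Spink1 in the totals all ventral log2 ratios fell by 0.82 and 835 genes in place of 659 were measured, of which 214 were higher and 154 lower (58.2% of calls higher in place of 82.5%). Centred on their median, 198 of the 659 genes were higher and 91 lower. Of 656 genes measured in both, 167 were higher in both, which is 65.7% of all 254 ventral and 20.6% of all 810 proximal higher calls. Most proximal calls were of genes not measured in the ventral library. Of calls among the 656 genes, the 167 are part of 253 ventral and 171 proximal ones. The 40 genes lower in both are 74.1% of all ventral and 5.24% of all proximal lower calls, and among the 656 genes part of 52 ventral and 47 proximal ones. Only 1 gene, Dnajb1, was called in opposite directions. Without the barcode with epithelial markers Hspa1a was also called in opposite directions, and after centring the ventral call of both genes was lost.

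**Figure D3:**
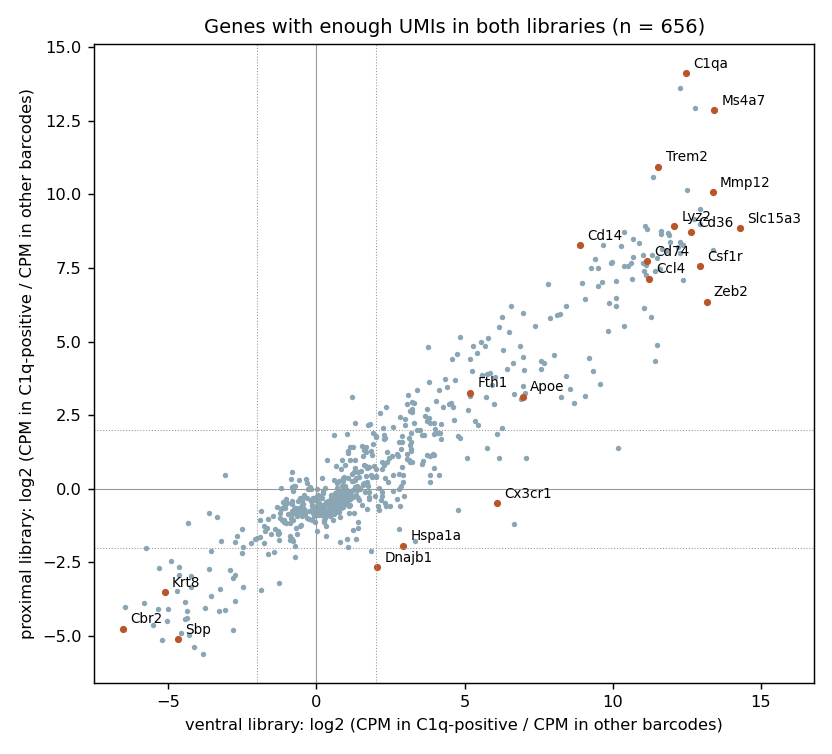
Log2 ratio of summed CPM, C1q-positive against other barcodes, in the ventral (horizontal axis) and proximal (vertical axis) library for the 656 genes measured in both; dotted lines mark 4-fold. Named macrophage genes lie at the upper right, epithelial genes such as Krt8 and Cbr2 at the lower left, and Dnajb1 and Hspa1a are higher in the ventral and lower in the proximal macrophages; for Hspa1a the proximal ratio is under 4-fold, but past it without the barcode with epithelial markers.

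Genes of myeloid identity held 1.41% of ventral and 1.26% of proximal macrophage UMIs, against 0.00278% and 0.0191% of the others. Of 16 such genes 11 were higher in the ventral library and 5 were not measured (median log2 ratio 10.09 over the measured genes), and 13 were higher and 2 neither in the proximal library (8.23). Tyrobp, an adaptor of immune receptors, was at 3609 CPM in the ventral and 1636 CPM in the proximal macrophages, 1643-fold and 357-fold above the other barcodes. Ms4a7, a four-span membrane protein typical of macrophages, had some of the highest ratios. The ventral macrophages had 1576 CPM (1330 to 1855), 10970-fold (5191 to 27771) above the others. The proximal ones had 797 CPM (729 to 869), 7441-fold (4013 to 15612) above. It was found in 25 of 26 and 46 of 53 macrophages and in 0 of 231 and 3 of 2842 epithelial barcodes. Lyz2, the lysozyme of myeloid cells, was patchier, in 14 of 26 and 31 of 53 macrophages, against 0.433% and 0.985% of the epithelial barcodes. Cd14, a co-receptor for bacterial lipopolysaccharide, was at 1163 and 4164 CPM. Cx3cr1, the receptor of the chemokine Cx3cl1, was at 283 CPM against 4.17 CPM in the ventral library (67.8-fold, 43.3 to 102). In the proximal library it was at 47.2 CPM against 66.3 CPM, a ratio of 0.713 (0.480 to 1.02), and 46.1% of the proximal epithelial barcodes had a Cx3cr1 UMI. Mertk, a receptor for dying cells, had 0 and 3 UMIs (1 of the 3 outside the barcode with epithelial markers), and the integrin gene Itgam had 2 UMIs in the ventral macrophages and 28.3 CPM against 57.5 CPM in the proximal ones.

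Among 20 transcription factors of macrophages 6 were higher in the ventral library and 14 not measured. Proximally 9 were higher, 2 lower and 5 neither (median log2 ratio 2.80). Spi1, which encodes the myeloid master factor PU.1, was at 565 CPM (422 to 741) against 0.267 CPM and at 693 CPM (629 to 760) against 4.06 CPM, 2118-fold and 171-fold higher. Irf5, a regulator of inflammatory genes, was 1589-fold and 139-fold higher. Pparg, a lipid-activated receptor, was at 354 CPM in 38 of 53 proximal macrophages against 16.1 CPM (22.0-fold) and had 6 UMIs in the ventral ones. A Pparg UMI was also found in 21.8% of the proximal epithelial barcodes, and after thinning the shares were 30.2% of macrophages and 1.90% of epithelial barcodes. Spic, known from haem-recycling macrophages, was in 18 proximal macrophages (89.7 CPM, 1397-fold) and had 3 UMIs in the ventral ones. Klf4 and Id3 were lower in the proximal macrophages, 5.34-fold and 15.7-fold, and Id3 was 29.1-fold lower without the barcode with epithelial markers, which held 6 of its 12 UMIs. The ventral ratio of Klf2 was 4.41, and it was not past 4-fold without Sbp and Spink1 in the totals.

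Genes of antigen presentation on MHC class II held 5.49% of ventral and 4.47% of proximal macrophage UMIs, against 0.00379% and 0.0233% of the others. Of its 12 genes 8 were higher and 4 not measured in the ventral library (median log2 ratio 10.82), and 10 were higher and 2 not measured in the proximal one (6.94). Cd74, the invariant chain that guides class II molecules, was found in every macrophage. It had 6, 77.5 and 284 UMIs as lowest, median and highest in the ventral library and 3, 198 and 834 in the proximal one, or 27013 CPM (25961 to 28096) and 19913 CPM (19567 to 20263). The others were at 11.9 and 93.3 CPM, so the ratios were 2269 and 213. H2-Aa, which encodes a class II chain, was at 7925 CPM (7360 to 8521) and 6958 CPM (6754 to 7166), 2206-fold and 203-fold higher. Much of the level in the other proximal barcodes lay in the other immune barcodes, where Cd74 was at 15784 CPM and H2-Aa at 5909 CPM. Cd86, a co-stimulator of T cells, was at 696 and 1157 CPM, 1093-fold and 74.3-fold higher. Ctss, the protease that trims the invariant chain, was 2195-fold and 488-fold higher. Ciita, the master regulator of class II genes, had only 2 and 6 UMIs.

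Genes commonly used to mark long-lived resident or perivascular macrophages differed widely in level. The list held 0.174% of ventral and 0.126% of proximal macrophage UMIs, against 0.105% and 0.0671% of the others. Lyve1, Cd163 and Vsig4 had no UMI in either library, where 3 UMIs would be 32.6 CPM in the ventral and 4.72 CPM in the proximal macrophages. Folr2 had 0 and 1 UMI, and Timd4 had 0 and 3 UMIs, the 3 in 1 barcode. Mrc1, the mannose receptor, was in 12 of 53 proximal macrophages (96.0 CPM, 13.9-fold higher) and in 1 of 26 ventral ones with 2 UMIs. In the proximal epithelial barcodes 12.3% had a Mrc1 UMI, and thinned to 1000 UMIs the shares were 11.3% and 0.810%. Pf4, a platelet and macrophage chemokine, was in 21 proximal macrophages at 323 CPM. Its ratio was 1159, or 781 without the barcode with epithelial markers, which held 77 of its 205 UMIs. Over the list of 16 genes 2 were higher and 1 lower in the ventral library, with 13 not measured, and 5 were higher and 2 lower in the proximal one, with 9 not measured. Selenop, a selenium carrier, was 24.7-fold and 5.11-fold higher, and Wfdc17 was 3129-fold and 403-fold higher. Cbr2, a carbonyl reductase also abundant in the epithelium, was lower in both, 92.4-fold (16.6 to 3650) in the ventral and 26.9-fold (15.0 to 53.9) in the proximal library.

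Monocyte genes summed to 0.00544% of UMIs in the ventral and 0.00944% in the proximal macrophages, against 0.00403% and 0.0134% of the others. The proximal sum is 60 UMIs, and it includes the barcode with epithelial markers. That barcode held 17 of Plac8, 5 of Ace, 3 of Ccr2 and 1 of Spn, so the proximal share is lower without it. Ly6c2 had 0 and 4 UMIs, and Ccr2, a chemokine receptor that draws monocytes into tissue, had 2 and 18, the 18 in 5 barcodes. These genes were below the minimum of UMIs, and their proximal levels were 6.30 CPM against 0.417 CPM for Ly6c2 (ratio 15.1, 3.91 to 41.8) and 28.3 CPM for Ccr2 (ratio 94.5, 49.2 to 177). Of the 8 genes of that list none was measured in the ventral library. In the proximal one 6 were not measured, 1 was neither, and Ace was lower, and all 5 of its UMIs lay in the barcode with epithelial markers. Without that barcode 2 were lower, the other being Plac8 (7.27-fold), of whose 23 UMIs that barcode held 17.

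Complement and Fc receptors were present in both libraries. C3ar1 and C5ar1, receptors of the complement fragments C3a and C5a, were at 283 and 228 CPM in the ventral and 288 and 275 CPM in the proximal macrophages. Their ratios were 6885 and 1236 in the ventral and 573 and 306 in the proximal library. C3 itself had 0 and 10 UMIs. Serping1, the inhibitor of the C1 complex, had no UMI in either, against 42.2 CPM in the other proximal barcodes (at least 8.94-fold lower). Of 14 complement genes beyond C1q 2 were higher in the ventral library with 12 not measured, and 6 were higher, 1 lower and 1 neither in the proximal one. Of 12 genes of Fc receptors and their signalling 6 were higher and 6 not measured in the ventral library (median log2 ratio 10.87). Of the same 12, 11 were higher and 1 neither in the proximal library (7.43), or 10 without the barcode with epithelial markers. Fcgr3, a receptor for antibody complexes, was at 435 and 94.4 CPM, 2118-fold and 71.2-fold higher. Trem2, whose upstream bases are printed above, was at 304 CPM (202 to 440) in 10 of 26 ventral and at 126 CPM (99.9 to 157) in 13 of 53 proximal macrophages, where 36.2% of its UMIs lay in 1 barcode. Its ratios were 2966 (1131 to 9837) and 1961 (862 to 5502).

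Of 12 genes for the uptake of dying cells 1 was higher in the ventral library with 11 not measured, and 4 were higher, 2 lower and 1 neither in the proximal one. Cd36, a scavenger receptor for lipids and dying cells, was at 391 CPM (274 to 542) in 13 ventral and at 1801 CPM (1698 to 1908) in 44 proximal macrophages. The others were at 0.0616 and 4.27 CPM, for ratios of 6355 and 422. Axl was 17.3-fold higher in the proximal library, and Mfge8, a bridge between dying cells and phagocytes, was 14.2-fold lower there. Lysosomal genes were higher by smaller ratios, in 12 of 17 ventral (4 neither, median log2 ratio 3.18) and 13 of 17 proximal genes (4 neither, 2.91). The ventral count was 8 after centring on the median of all genes. Ctsb, a lysosomal protease, was at 2402 and 2023 CPM, 52.0-fold and 28.9-fold higher. Ctsl was near the level of the other barcodes in the ventral library (ratio 1.27) and 3.04-fold lower in the proximal one.

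Genes of lipid and iron handling were among the most abundant in the macrophages. Apoe, a carrier of lipids and cholesterol, was at 23621 CPM against 188 CPM in the ventral library (125-fold) and at 8163 CPM against 931 CPM in the proximal one (8.77-fold). It ran from 0 through a median of 36.5 to 695 UMIs in the ventral and from 0 through 22 to 1394 UMIs in the proximal macrophages. Epithelial barcodes had 3460 and 909 CPM of Apoe and proximal fibroblast barcodes 3826 CPM. Of 13 lipid genes 4 were higher and 9 not measured in the ventral library, and 9 were higher and 3 neither in the proximal one (median log2 ratio 4.23). Plin2, which coats lipid droplets, was 46.5-fold and 31.5-fold higher. Fth1, the heavy chain of the iron store ferritin, was at 25361 CPM and 27178 CPM, 36.4-fold (34.9 to 38.0) and 9.60-fold (9.45 to 9.74) higher, and was found in every macrophage. Hmox1, which breaks down haem, was at 1648 CPM in 49 of 53 proximal macrophages, against 73.6 CPM in the others (22.4-fold) and a UMI in 49.1% of epithelial barcodes. Thinned to 1000 UMIs, 58.5% of these macrophages and 6.62% of epithelial barcodes kept one. In the ventral library it was at 435 CPM in 9 of 26 macrophages, with 65.0% of its UMIs in 1 barcode. Of 9 genes for iron and haem 3 were higher with 6 not measured in the ventral library, and 5 were higher, 1 lower and 2 neither in the proximal one.

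Chemokines were prominent, with different members leading in each library. Of 15 ligand genes 4 were higher and 11 not measured in the ventral library, and 10 were higher and 1 neither in the proximal one (median log2 ratio 5.33). Ccl4, which draws T cells and monocytes, was at 4979 CPM (4533 to 5456) in the ventral macrophages, with 0, 9.5 and 63 UMIs as lowest, median and highest. It was at 647 CPM (586 to 713) in the proximal ones, where 30.7% of its UMIs lay in 1 barcode. Its partner Ccl3 was at 2196 and 305 CPM. Cxcl2, which draws neutrophils, had the reverse order, at 1739 CPM (1480 to 2031) in 15 of 26 ventral and at 4667 CPM (4501 to 4838) in 44 of 53 proximal macrophages. Its ratios to the other barcodes were 498 and 129. Cxcl3, of the same group, had no UMI in the ventral macrophages and was at 279 CPM in 14 proximal ones. Cxcl10 was at 101 CPM against 125 CPM in the proximal library. Of the receptors, Ccr1 was at 78.7 CPM in 18 proximal macrophages (1225-fold), and Ccrl2, which holds chemerin at the cell surface, was 205-fold and 19.3-fold higher.

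Il1b, the inflammatory cytokine interleukin 1 beta, was at 935 CPM (748 to 1155) in 14 ventral and at 929 CPM (855 to 1007) in 33 proximal macrophages, 3253-fold and 284-fold higher. Il1a was at 228 and 128 CPM, and Tgfb1 was 60.5-fold and 11.5-fold higher. Tnf was at 176 CPM in the proximal macrophages and had 11 UMIs in the ventral ones. Il6 had no UMI in either, with 7.42 CPM in the other proximal barcodes. Of 16 cytokine and growth factor genes 3 were higher with 13 not measured in the ventral library, and 8 were higher, 1 lower and 2 neither in the proximal one. The lower one, the growth factor Hbegf, was at 67.7 CPM (49.0 to 91.2) against 878 CPM in the others. Without the barcode with epithelial markers, which held 32 of its 43 UMIs, it was at 18.7 CPM and 47.0-fold lower.

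**Figure D4:**
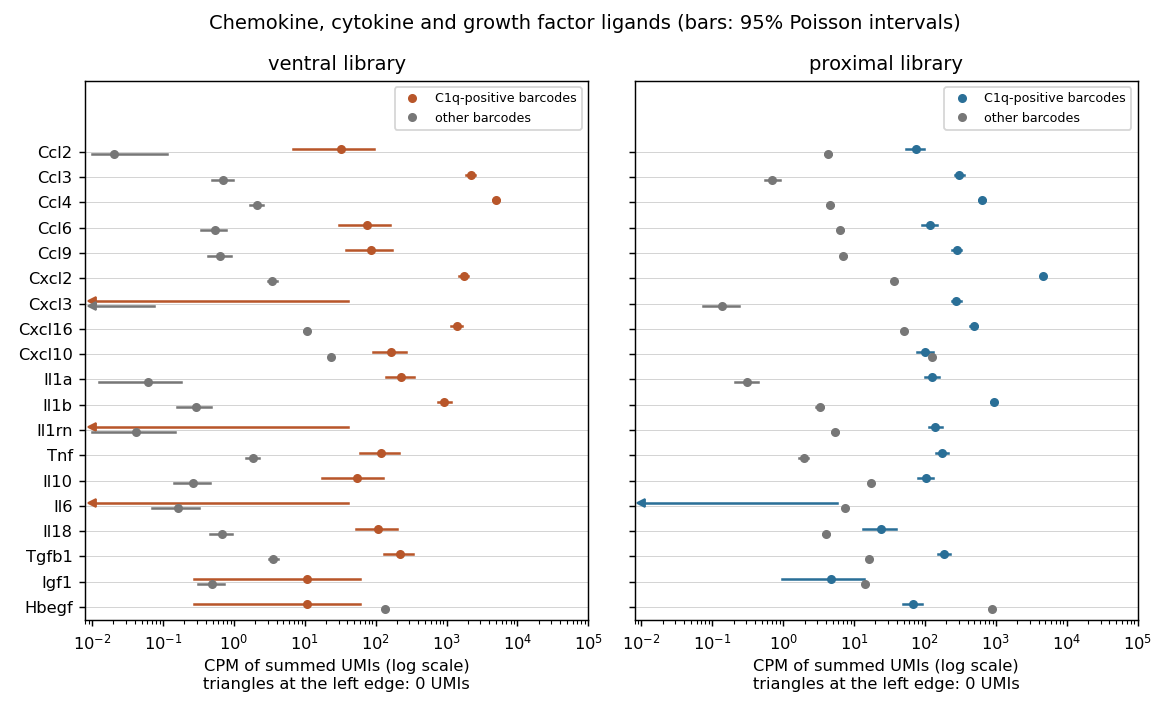
Summed CPM (horizontal axis, log scale) of chemokine, cytokine and growth factor genes in the C1q-positive barcodes (coloured) and the other barcodes (grey) of the ventral library left and the proximal library right, with 95% Poisson intervals and triangles for 0 UMIs. Ccl3 and Ccl4 are higher in the ventral macrophages (2196 and 4979 CPM) and Cxcl2 in the proximal ones (4667 CPM), while Hbegf is below the level of the other barcodes in both.

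The receptors for growth and immune signals were measured mainly at the greater depth of the proximal library. There 9 of 12 cytokine receptor genes were higher and 3 neither (median log2 ratio 4.41), against 2 higher and 10 not measured in the ventral library. Csf2rb, a shared chain of the receptors for the growth factor Csf2 and interleukins, was at 201 CPM (51.7-fold), and Il10ra at 97.6 CPM (190-fold). Tgfbr1 was 40.5-fold and 4.99-fold higher. Of 15 genes for sensing microbes 2 were higher in the ventral library with 13 not measured, and 7 were higher and 2 neither in the proximal one. Tlr2, a receptor for bacterial lipoproteins, was at 467 and 88.2 CPM, 256-fold and 23.6-fold higher. Nlrp3, the inflammasome sensor, was at 268 CPM (229-fold) in the proximal library. Tlr4, the receptor for lipopolysaccharide, had 1 ventral UMI and was at 102 CPM against 111 CPM in the proximal library.

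Of 11 ligand genes for receptors of macrophages 1 was higher with 10 not measured in the ventral library, and 2 were higher, 1 lower and 8 not measured in the proximal one. The higher ones were Tgfb1, given above, and in the proximal library also Ccl2 (17.2-fold), with 59.6% of its UMIs in 1 barcode. The lower one was Cx3cl1, with no UMI (6.93-fold lower with 0 set to 3 UMIs). Without the barcode with epithelial markers it had too few expected UMIs to be measured, so that 0 were lower. Csf1 had 0 and 5 UMIs in them and was highest in proximal endothelial (39.0 CPM, 26.5 to 55.3) and fibroblast barcodes (34.7 CPM, 29.3 to 40.9), whose intervals overlap. Epithelial barcodes had 5.48 CPM of it in the ventral and 5.32 CPM in the proximal library. Il34, the other Csf1r ligand, was at 29.6 CPM (24.6 to 35.4) in proximal fibroblast barcodes and at 2.66 CPM in proximal epithelial ones. Cx3cl1 had no UMI in the macrophages and was at 76.7 CPM in proximal endothelial, 35.7 CPM in proximal epithelial and 26.6 CPM in ventral epithelial barcodes. The ventral library held 3 fibroblast and 0 endothelial barcodes, so its stroma was not measured. Macrophages and ligand-bearing cells were counted after dissociation, and contact between them was not measured.

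Of 10 genes linked to alternative or classical activation 2 were higher and 8 not measured in the ventral library, and 5 were higher and 1 neither in the proximal one. Retnla, an effector of interleukin 4 signalling on chromosome 16 at 48842551 to 48844461, had the highest ratio among called proximal genes other than C1q (11044, 5972 to 23125). Its 751 UMIs came from 3 of 53 barcodes with 582, 129 and 40 UMIs. The barcode with 582 had 19 C1q UMIs (0.107%), among the lowest C1q shares of the proximal macrophages. It had no UMI in the ventral library. Nos2, the enzyme that usually marks classical activation, had no UMI in either. Of 11 interferon-stimulated genes 1 was higher in the ventral library with 10 not measured, and 4 were higher and 3 neither in the proximal one. Of these 4, Ifit3 rested on 1 barcode with 57 of 68 UMIs, and Rsad2 had 47 of 89 UMIs in 1 barcode. Bst2 was 8.83-fold and 6.21-fold higher.

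Heat shock and immediate-early genes, which cells switch on within minutes of stress or stimulation, ran differently in the libraries. In the ventral library 2 of 14 were higher, 9 neither and 3 not measured (median log2 ratio 1.12, near the 1.08 of all genes), and without Sbp and Spink1 in the totals 1 was higher and 2 lower, and after centring 0 were higher and 2 lower. In the proximal library 5 were lower and 9 neither (median -1.92), or 9 lower without the barcode with epithelial markers. Hspa1a was at 3272 CPM against 431 CPM in the ventral library (7.60-fold higher, a log2 ratio of 2.93 that fell under 4-fold at 1.85 after centring) and at 398 CPM against 1517 CPM in the proximal one (3.81-fold lower). Of its 253 proximal UMIs 114 lay in the barcode with epithelial markers, and without that barcode Hspa1a was at 236 CPM and 6.42-fold lower, past the 4-fold limit. Of 8 cell cycle genes none was measured in the ventral library, and the 1 measured in the proximal one, Pcna, was neither higher nor lower by 4-fold. Mki67, of dividing cells, had 1 and 7 UMIs, and Pcna, which also acts in DNA repair, had 17 ventral UMIs and was at 168 CPM against 111 CPM in the proximal library. Nr3c1, the glucocorticoid receptor, was at 151 CPM against 28.0 CPM in the proximal library (5.40-fold higher).

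Among other genes with high ratios, Mmp12 and its companions stood out in single barcodes. Mmp12, the macrophage elastase, lies on chromosome 9 at 7344381 to 7369499. It was at 1946 CPM (1671 to 2253) in 17 of 26 ventral and at 3581 CPM (3436 to 3731) in 36 of 53 proximal macrophages, 10533-fold and 1079-fold above the others. It was found in 0 of 231 and 79 of 2842 (2.78%) epithelial barcodes. Per barcode it had 0, 3 and 28 UMIs as lowest, median and highest in the ventral and 0, 26 and 230 in the proximal library. In each library the counts thus graded from many UMIs down to 1, and 9 of 26 ventral and 17 of 53 proximal macrophages had none. Slc15a3, a transporter of lysosomal peptides, was found in 52 of 53 proximal macrophages (960 CPM, 465-fold). In the ventral library it had 38 UMIs against 1 in all other barcodes (20125-fold, 3400 to 815545). Hpgds, a prostaglandin D synthase, was at 478 and 496 CPM, in 21 of 26 and 44 of 53 macrophages.

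Within the proximal library, macrophages with and without Mmp12 differed in other genes. Dcstamp, a protein of macrophage fusion, was found in 29 of the 36 with Mmp12 and in 3 of the 17 without. Cd36 was found in 33 and 11, Pparg in 31 and 7, and Cd207, the langerin gene on chromosome 6 at 83671215 to 83677857, in 22 and 1. Mrc1 went the other way, in 3 and 9, and Lyz2 was in 17 of the 36 and 14 of the 17, at medians of 0 and 13 UMIs. H2-Aa was found in 35 and 16. All 12 macrophages with Mrc1 also had Lyz2. The same division was seen in part of the ventral library, where Dcstamp was in 10 of the 17 macrophages with Mmp12 and in 0 of the 9 without, and Cd36 in 11 and 2. Cd207 had no UMI in the ventral macrophages. Over the 53 proximal barcodes the Spearman correlation of Mmp12 with Dcstamp was 0.60, with Cd207 0.52 and with Lyz2 -0.59. Over the 26 ventral ones it was 0.55 with Dcstamp and -0.37 with Lyz2. Its correlation with a barcode's total UMIs was 0.14 in the proximal and -0.08 in the ventral library. The barcodes of a library share its preparation and differ in depth, so these values are descriptions of sparse counts. The heat map of single barcodes shows the pattern.

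**Figure D5:**
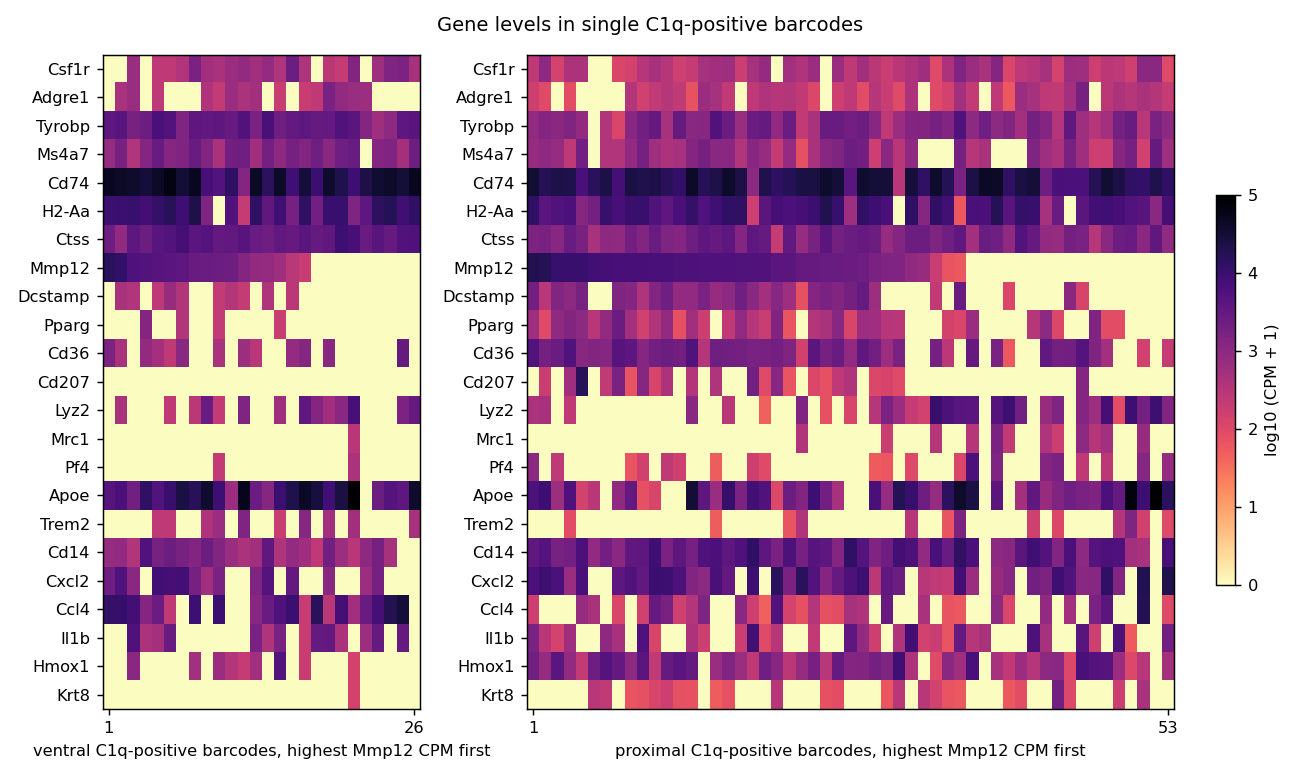
Level of 23 genes (rows, colour as log10 of CPM plus 1) in each C1q-positive barcode (columns, ordered by Mmp12 CPM), ventral library left and proximal library right. Dcstamp and Cd36 fill mostly the columns with Mmp12, and Lyz2 and Mrc1 more often those without, most clearly among the 53 proximal barcodes.

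Single barcodes carried much of some genes. In the ventral library the barcode with the most C1q (7259 UMIs, 145 of C1q) held 695 of the Apoe UMIs, 53 of the Lyz2 UMIs, 70 of the Ctsd UMIs and all 14 of the Ccl8 UMIs. A proximal barcode of 19023 UMIs held 1394 Apoe, 104 of 107 Gpnmb and 29 Trem2 UMIs. Cd207 had 228 of its 352 proximal UMIs in 1 barcode. Relative to the variance that counting alone gives, the most variable genes were Apoe (174-fold), Cd74 (52.5-fold) and Ctsd (34.1-fold) in the ventral macrophages. In the proximal ones they were Defb50 (743-fold), Apoe (484-fold), Retnla (460-fold) and Clu (377-fold), of which Defb50 and Clu lay mostly in the barcode with epithelial markers.

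Genes of the epithelium were lower in the macrophages. All 3 measured keratin and adhesion genes of 8 were lower in the ventral library and all 8 in the proximal one. Of 6 secretory genes beyond the pair used in the choice, 4 were lower and 2 not measured in the ventral library. In the proximal one all 6 were lower. The choice left out barcodes rich in Sbp and Spink1, while 1708 of the 1969 other ventral barcodes were rich in them. Low secretory genes thus partly describe the choice. Krt8, a keratin of luminal cells, was 34.8-fold lower in the ventral library, with 1 UMI in the macrophages. In the proximal library it was 11.4-fold lower, and 39.4-fold lower without the barcode with epithelial markers. Defb50, a secreted defensin, was 7.63-fold lower there, and 65.0-fold lower without that barcode. Msmb, a secreted protein of the gland, was 22.3-fold and 81.4-fold lower in the same order.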

How the data were processed

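The deposited count matrices give UMIs, not normalized, for each gene and barcode. Cell Ranger 7.0.0 made them, per the file headers, with mm10 as the genome per the submitters' processing notes. The annotation release is not given in the sources used here. No free RNA was removed and no doublet caller was run here. Alternatives subtracted the profile of the other barcodes and left out the barcode that also carried markers of another group. Ratios of summed counts used Python 3.11.15 with numpy 2.4.6, scipy 1.17.1, pandas 2.3.3 and matplotlib 3.10.9. Intervals are exact Poisson (CPM), Clopper-Pearson (shares) and conditional (ratios), all at 95%, and a count of 0 was set to 3 UMIs. Other barcodes were grouped by at least 5 UMIs and 0.1% of a marker list, and shares were compared after thinning to 1000 UMIs in 1 random draw. The calculation was tested on simulated data with 200 genes changed 8-fold and with counting error as the only spread. Of 4538 proximal genes it called 100% of raised, 94.0% of lowered and 0% of unchanged ones. Of 454 ventral genes it called 100%, 97.0% and 0%. The simulation held no spread between barcodes, so these rates do not carry over to the calls made here. Positions are from GENCODE M21 (387 of 387 named genes).

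Named genes were those of the lists, the 20 highest and 10 lowest ratios of each library without genes of mitochondria, ribosomal proteins, T cell receptors and immunoglobulins and without unnamed models, the 10 most variable genes among those with 50 UMIs, and 10 more genes past 4-fold in both libraries by their smaller ratio. Not every such gene is described. The cells and the lists were chosen with earlier results of these data known. Further alternatives were other totals, equal weight per barcode, another minimum of UMIs, other limits for choosing barcodes and another thinning depth. Clec7a and Mx1 were not analysed here.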

Additional observations from a re-analysis of the deposited data

Results flagged for a closer look

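Dnajb1, a co-chaperone of the heat shock response, had ratios past 4-fold in opposite directions in the 2 libraries. Its log2 ratio was 2.05 in the ventral library, with 957 CPM in the macrophages against 231 CPM in the other barcodes, and -2.66 in the proximal library, with 64.5 against 408 CPM. These rest on 88 and 41 UMIs in the macrophages. The ventral ratio was not past 4-fold when Sbp and Spink1 were left out of the totals (log2 ratio 1.23) or when ratios were centred on their median (0.97), and with 1 library per region the difference was not tested.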

How the results depend on the processing

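The number of C1q-positive barcodes stayed within 1.5 times of its value under every limit tried. With Sbp and Spink1 left out of the totals the genes lower in the ventral macrophages went from 54 of 659 measured genes to 154 of 835, where both the shift and the larger set of measured genes enter. With ratios of the same 659 genes centred on their median, 91 were lower. With a minimum of 10 UMIs, 537 ventral genes were higher and 109 lower, and 1178 proximal genes were lower. With a minimum of 50 UMIs these counts were 105, 24 and 335, as more or fewer genes were compared. Alternatives were followed for only part of the calls. These were 111 genes of the 254 higher and 54 lower ventral ones, and 215 of the 810 higher and 764 lower proximal ones. Over the 111 ventral genes 0 of 1332 alternative values changed direction and 47, in 24 genes, were no longer past 4-fold. Over the 215 proximal genes 0 of 2580 changed direction and 34, in 19 genes, were no longer past it. The other calls were not followed, so these counts say nothing of them. Thinned to 500 UMIs, Csf1r was found in 23.1% of ventral and 15.1% of proximal macrophages, and unthinned in 80.8% and 92.5%. The median of 3622 UMIs per ventral macrophage limits what could be measured there, and 659 genes were compared in place of 5323. No paired analysis was possible because each region has 1 library, and for the same reason no replicate could be left out.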
